A study of Mus musculus with 4 samples.

Results

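The 7 genes described here are the mouse MHC class II presentation genes H2-Aa, H2-Ab1, H2-Eb1, H2-DMa, H2-DMb1, Cd74 and Ciita. They were found by gene symbol among the 24537 genes of the deposited expression table, and each had 1 row. RNA was sequenced from tumour-infiltrating cells labelled CD8+, taken from mice bearing B16-GP33 tumours, 21 days after implantation. B16 is a mouse melanoma line that arose in the C57BL/6 strain, and GP33 is a lymphocytic choriomeningitis virus epitope that CD8+ T cells recognise. One group of cells carried the label ACSS2NLS (2 libraries), which joins ACSS2, an enzyme that makes acetyl-CoA from acetate, to NLS, commonly short for nuclear localisation signal, and the control cells carried the label EV (2 libraries). Both groups came from the same kind of tumour at the same day. The sources used here do not state the mouse strain, age, way of cell isolation or number of mice per library. The p-values therefore speak only of the spread among these libraries, which may be technical.

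MHC class II molecules show peptides from engulfed or surface proteins to CD4+ T cells. Professional antigen-presenting cells, namely dendritic cells, macrophages and B cells, carry them, whereas mouse T cells are not generally regarded as making them. An alpha and a beta chain form the peptide-binding groove. The invariant chain, encoded by Cd74, holds the groove until the endosome, where the H2-DM heterodimer exchanges the remaining invariant chain peptide for antigen. Ciita encodes the transactivator that switches these genes on as a group. It binds no DNA itself but docks on the RFX complex, NF-Y and CREB, which sit on the X and Y boxes of the class II promoters.

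The promoters of 4 of the 7 genes were in the RefSeq promoter table (build GRCm38.p6). They are printed to show which of them hold letters of the boxes through which Ciita is known to act. Each sequence runs 5′ to 3′ on the gene's strand over 300 bases, 250 before and 50 after the RefSeq start. Capitals mark the Y box CCAAT, the X1 box core GCAACNG and the X1 box start CTNGNAAC on either strand. GCAACNG and CTNGNAAC overlap in H2-Eb1, where they run into each other, and CTNGNAAC was chosen after the sequences had been read. The windows are chr17:34287774-34288073 on the minus strand for H2-Aa, chr17:34305617-34305916 on the plus strand for H2-Eb1, chr17:34152941-34153240 on the plus strand for H2-DMb1, and chr17:34122582-34122881 on the plus strand for H2-DMa.
H2-Aa: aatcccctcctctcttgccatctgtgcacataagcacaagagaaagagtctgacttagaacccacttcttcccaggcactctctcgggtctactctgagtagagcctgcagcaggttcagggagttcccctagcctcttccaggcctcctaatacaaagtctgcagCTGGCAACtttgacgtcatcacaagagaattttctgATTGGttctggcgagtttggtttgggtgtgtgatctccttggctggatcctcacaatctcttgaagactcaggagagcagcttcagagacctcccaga
H2-Eb1: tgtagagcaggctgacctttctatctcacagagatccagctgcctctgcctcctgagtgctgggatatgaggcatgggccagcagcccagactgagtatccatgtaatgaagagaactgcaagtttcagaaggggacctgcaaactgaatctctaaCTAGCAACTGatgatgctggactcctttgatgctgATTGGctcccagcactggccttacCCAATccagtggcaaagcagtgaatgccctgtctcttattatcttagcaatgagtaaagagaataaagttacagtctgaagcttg
H2-DMb1: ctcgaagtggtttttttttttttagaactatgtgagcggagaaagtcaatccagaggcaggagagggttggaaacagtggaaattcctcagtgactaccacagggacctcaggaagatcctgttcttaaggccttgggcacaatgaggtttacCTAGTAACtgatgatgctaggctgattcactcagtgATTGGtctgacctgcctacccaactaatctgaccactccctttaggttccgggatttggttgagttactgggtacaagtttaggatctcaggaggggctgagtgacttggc
H2-DMa: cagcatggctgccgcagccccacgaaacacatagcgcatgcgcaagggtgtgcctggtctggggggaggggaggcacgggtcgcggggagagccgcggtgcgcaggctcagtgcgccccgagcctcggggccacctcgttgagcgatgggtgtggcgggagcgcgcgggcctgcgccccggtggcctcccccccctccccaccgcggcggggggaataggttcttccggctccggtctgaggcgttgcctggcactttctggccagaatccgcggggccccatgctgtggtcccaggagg

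The windows of H2-Aa, H2-Eb1 and H2-DMb1 each held CTNGNAAC followed by a reverse Y box (ATTGG). There were 28 bases between these boxes in H2-Aa, 27 in H2-Eb1 and 28 in H2-DMb1. The ATTGG began 48, 59 and 61 bases before the RefSeq start of the window in the same order. For H2-Aa that start lies upstream of the transcript start used by the table (offset -52 bases), whereas for H2-Eb1 and H2-DMb1 the starts coincide. Only H2-Eb1 held GCAACNG among the 4 windows shown. The H2-DMa window at the start used by the table held none of the 3 motifs. H2-DMa has another window in the RefSeq table, 2686 bases downstream, with 1 ATTGG. Of 32851 RefSeq promoter windows of this length, 37.4% held CCAAT, 12.7% held GCAACNG, 13.2% held CTNGNAAC and 5.03% held both CCAAT and CTNGNAAC. A match is a description of the letters and no evidence of binding.

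The 4 libraries held 46000000 to 49300000 tags each, to the nearest 100000, and 39.6% to 41.9% of them lay on exons. Values are given in FPKM, which scales the tags of a gene by its exon length and by the total tags of its library, so that levels can be compared between genes. Acss2 stood at 80.7 and 86.3 FPKM in the ACSS2NLS libraries, against 3.66 and 3.92 FPKM in the EV libraries, which matches the labels. Cd3e, which encodes a CD3 subunit of the T cell receptor complex, was at 315 and 332 FPKM in ACSS2NLS and at 346 and 344 FPKM in EV. Cd8a was at 161 and 145 FPKM in ACSS2NLS and at 186 and 161 FPKM in EV. The CD8 T cell label therefore matched these defining markers in every library. In bulk libraries such as these, fewer cells of a type and less RNA per cell cannot be told apart.

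The 2 chains of the I-A molecule were detected in every library. H2-Ab1, the beta chain (NM_207105; mm10 chromosome 17, 34263227 to 34269418, plus strand), stood at 118 FPKM in ACSS2NLS replicate 1 and 237 FPKM in ACSS2NLS replicate 2, against 59.8 FPKM in EV replicate 1 and 190.1 FPKM in EV replicate 2. H2-Aa, the alpha chain (NM_010378; chromosome 17, 34282751 to 34287771, minus strand), stood at 59.2 and 139 FPKM in ACSS2NLS, against 24.4 and 91.9 FPKM in EV. For both chains replicate 2 was the higher library of each group, and the ranges of the groups overlapped. H2-Eb1, the beta chain of the I-E molecule (NM_010382; chromosome 17, 34305867 to 34316674, plus strand), stood at 36.7 and 78.3 FPKM in ACSS2NLS, against 14.6 and 52.8 FPKM in EV. Its alpha chain partner, listed in the table as the pseudogene H2-Ea-ps, was listed at 0 in all 4 libraries. C57BL/6 mice are known to lack the I-E molecule because of a deletion in that gene.

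Cd74 had the highest level of the 7 genes. The invariant chain gene (NM_010545; chromosome 18, 60803849 to 60812652, plus strand) stood at 209 and 488 FPKM in ACSS2NLS, against 95.6 and 356 FPKM in EV. It made up 47.0% and 49.96% of the summed FPKM of the 7 genes in ACSS2NLS and 45.8% and 49.3% in EV. Ciita had the lowest level. The transactivator gene (NM_001243761; chromosome 16, 10489781 to 10527640, plus strand) stood at 1.15 and 1.97 FPKM in ACSS2NLS, against 0.495 and 1.55 FPKM in EV. These values rest on 288 and 491 tags in ACSS2NLS and on 117 and 393 tags in EV. The exact 95% Poisson intervals of the 2 lowest Ciita values, 1.02 to 1.29 FPKM in ACSS2NLS replicate 1 and 0.409 to 0.592 FPKM in EV replicate 1, were apart. Such intervals cover counting error only.

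The 2 genes of the peptide exchanger H2-DM differed in how far they ranged. H2-DMa, its alpha chain (NM_010386; chromosome 17, 34122832 to 34139101, plus strand), stood at 15.0 and 22.3 FPKM in ACSS2NLS, against 11.8 and 20.1 FPKM in EV. H2-DMb1, its main beta chain (NM_010387; chromosome 17, 34153191 to 34160229, plus strand), stood at 4.83 and 11.1 FPKM in ACSS2NLS, against 2.18 and 10.3 FPKM in EV. The highest library exceeded the lowest 1.88-fold for H2-DMa and 5.10-fold for H2-DMb1, so the ratio of H2-DMa to H2-DMb1 was 3.11 and 1.999 in ACSS2NLS and 5.42 and 1.95 in EV. Of the 50-base windows of the H2-DMb1 transcript in GENCODE M21, 27.2% also occur in H2-DMb2, a near copy beside it, so some of its tags may be assigned uncertainly. H2-DMb2 itself stood at 0.552 and 0.744 FPKM in ACSS2NLS and at 0.559 and 0.964 FPKM in EV. For H2-Aa, H2-Ab1, H2-Eb1, H2-DMa and Cd74 0% of such windows occurred in another gene, and for Ciita 0.41% did.

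**Figure D1:**
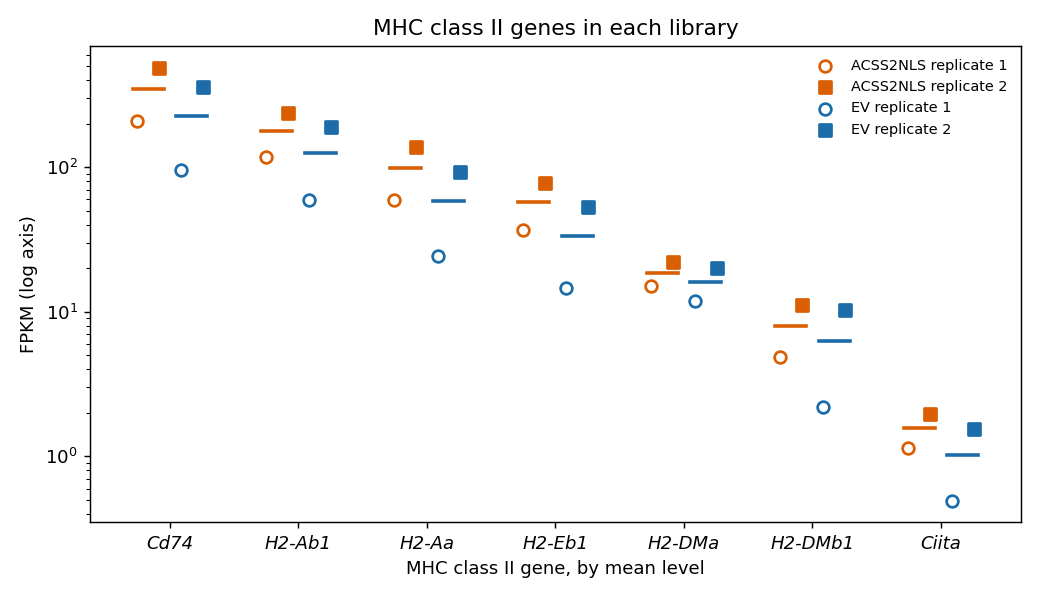
FPKM (log axis) of the 7 MHC class II genes in each library, ordered by mean level. Open circles are replicate 1, filled squares replicate 2, orange ACSS2NLS and blue EV, and bars are group means (n = 2). For every gene the order from low to high was EV replicate 1, ACSS2NLS replicate 1, EV replicate 2 and ACSS2NLS replicate 2.

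The order of the 4 libraries was the same for all 7 genes. EV replicate 1 was lowest, followed by ACSS2NLS replicate 1, EV replicate 2 and ACSS2NLS replicate 2, as the plot of class II levels by library shows. This order was noticed in the values. Over the 4 libraries 9810 genes averaged 1 FPKM or more, and 8.81% of them had it, while 34.9% had replicate 2 above replicate 1 in both groups. The summed level of the 7 genes was 444 and 978 FPKM in ACSS2NLS, against 209 and 723 FPKM in EV. The 7 genes took 0.140% and 0.298% of all tags counted on exons in ACSS2NLS and 0.0624% and 0.220% in EV. In each library the genes also stood in the same order of level, Cd74, H2-Ab1, H2-Aa, H2-Eb1, H2-DMa, H2-DMb1 and Ciita from high to low. From Cd74 down to H2-DMa the ranges of neighbours over the 4 libraries overlapped, whereas H2-DMa stayed above H2-DMb1 and H2-DMb1 above Ciita in all of them. The group means of H2-Aa were 99.0 ± 56.2 FPKM in ACSS2NLS and 58.2 ± 47.7 FPKM in EV, and those of H2-Eb1 were 57.5 ± 29.4 FPKM in ACSS2NLS and 33.7 ± 27.0 FPKM in EV (SD, n = 2 each).

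All 7 genes had a higher mean in ACSS2NLS than in EV, but none passed the test. Fold changes of the mean FPKM were 1.71 for H2-Eb1, 1.70 for H2-Aa, 1.54 for Cd74, 1.53 for Ciita, 1.42 for H2-Ab1, 1.28 for H2-DMb1 and 1.17 for H2-DMa. On the log2(FPKM + 1) scale, where low genes appear to change less than they do, the changes of ACSS2NLS minus EV lay between 0.23 and 0.92, with a median of 0.65, beside a median of 0.015 over all 9810 genes tested. The largest were those of H2-Aa, 0.92 ± 0.68, and H2-Eb1, 0.92 ± 0.64 (SE, n = 2 per group; limma-trend, Benjamini-Hochberg adjusted p = 0.835 and 0.833). Cd74 had 0.79 ± 0.69 (limma, adjusted p = 0.853) and H2-Ab1 had 0.65 ± 0.60 (limma, adjusted p = 0.863). H2-DMb1 had 0.49 ± 0.65 and H2-DMa 0.23 ± 0.29 (limma, adjusted p = 0.901 and 0.894). For Ciita the change was 0.37 ± 0.32 (limma, adjusted p = 0.85).

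With limma, 0 of the 7 passed the adjusted threshold and 0 had an unadjusted p under 0.05. In the same fit, 2 of the 9810 genes passed, which is 0.0204%, namely Acss2, the gene of the label, and Acss2os. Both were higher in ACSS2NLS, with log2 changes of 4.14 and 3.96 (limma, adjusted p = 0.000931 and 0.00152). Acss2os is named after Acss2, and whether its tags can be told apart from those of Acss2 was not tested. An unadjusted p under 0.05 was found for 5.97% of the genes tested. The groups overlapped for each of the 7 genes, whereas over all genes tested 37.4% had groups that did not overlap, 19.3% with both ACSS2NLS libraries above both EV libraries and 18.1% with both below. The smallest p that an exact permutation test could reach with 2 libraries against 2 is 0.333. The direction changed with single libraries left out, given here as changes in mean log2(FPKM + 1). Without EV replicate 1, 6 of the 7, all but H2-Eb1, were lower in ACSS2NLS on this scale and the changes lay between -0.43 and 0.024. Without ACSS2NLS replicate 2, H2-DMa and H2-DMb1 were lower on this scale and the changes lay between -0.040 and 0.38. Without ACSS2NLS replicate 1 all 7 were higher by 0.50 to 1.52, and without EV replicate 2 by 0.59 to 1.85.

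**Figure D2:**
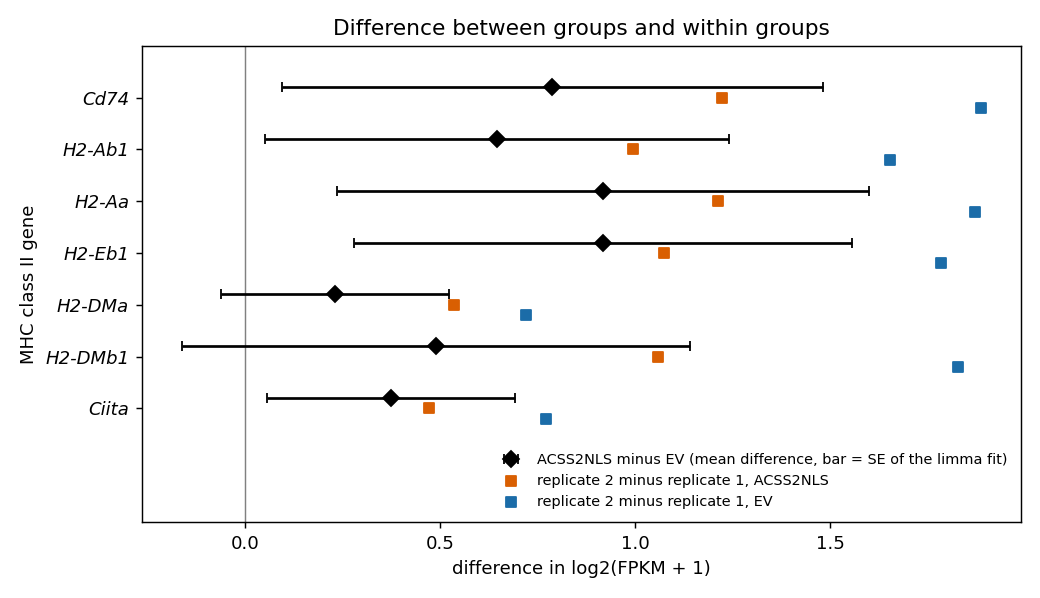
Difference in log2(FPKM + 1) for each MHC class II gene: ACSS2NLS minus EV with its SE (black diamonds, limma fit, n = 2 per group), and replicate 2 minus replicate 1 in ACSS2NLS (orange) and in EV (blue). For each gene both replicate differences exceed the difference between the groups.

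The libraries of a group differed more than the groups did. Between replicates, H2-Aa differed 2.34-fold in ACSS2NLS and 3.77-fold in EV, Cd74 differed 2.34-fold and 3.72-fold, and H2-DMb1 differed 2.30-fold and 4.72-fold. H2-DMa ranged least, at 1.48-fold in ACSS2NLS and 1.70-fold in EV. The standard deviation within groups on the log2(FPKM + 1) scale was 0.96 to 1.12 for H2-Aa, H2-Ab1, H2-Eb1, H2-DMb1 and Cd74. It was 0.45 for both H2-DMa and Ciita, against a median of 0.14 over all genes tested. In FPKM, however, Ciita differed 1.72-fold between the ACSS2NLS replicates and 3.13-fold between the EV replicates, more than H2-DMa. On this log2 scale low genes such as Ciita appear to change less than they do. At least 94.1% of the genes tested had a smaller standard deviation than each of the 7. The plot of differences between and within groups shows this for each gene.

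While their sum changed 4.68-fold over the libraries, the proportions among most of the genes changed little. H2-Eb1 stood to H2-Aa at 0.619 and 0.565 in ACSS2NLS and at 0.599 and 0.574 in EV. Cd74 stood to H2-Ab1 at 1.76 and 2.06 in ACSS2NLS and at 1.60 and 1.87 in EV, and H2-Ab1 stood to H2-Aa at 1.999 and 1.71 in ACSS2NLS and at 2.45 and 2.07 in EV. H2-DMa was the exception. It held 3.39% and 2.28% of the summed FPKM of the 7 genes in ACSS2NLS, against 5.67% and 2.79% in EV, so its share was highest where the other class II genes were lowest.

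**Figure D3:**
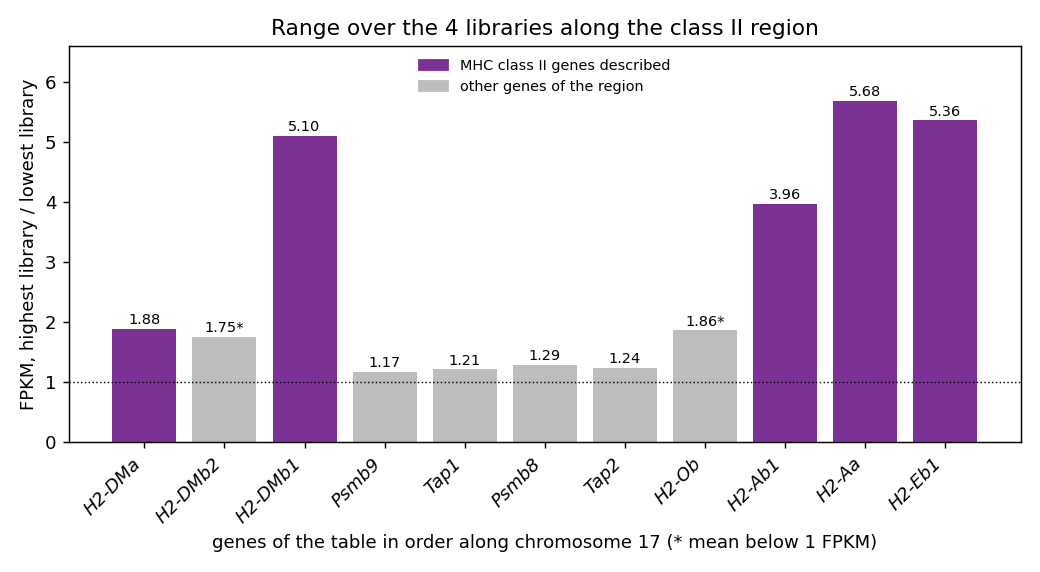
FPKM of the highest library divided by that of the lowest, for the 11 genes of the table between H2-DMa and H2-Eb1 in their order along chromosome 17 (asterisk: mean below 1 FPKM, not tested). Purple bars, the MHC class II genes described, lie between 1.88 and 5.68, and the class I processing genes Psmb9, Tap1, Psmb8 and Tap2 between 1.17 and 1.29.

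Of the 7 genes, 5 lie within 194 kb of chromosome 17 (34122832 to 34316674), and the table held 6 other genes in that stretch. Among these, Tap1 and Tap2, the peptide transporter of the class I pathway, and Psmb8 and Psmb9, subunits of the immunoproteasome, lie between the H2-DM genes and H2-Ab1. Tap1 stood at 117 and 120 FPKM in ACSS2NLS, against 141 and 138 FPKM in EV, and Psmb9 at 215 and 184 FPKM in ACSS2NLS, against 188 and 190.3 FPKM in EV. The highest library of these 4 genes exceeded the lowest 1.17-fold to 1.29-fold, as the plot of library ranges along the region shows, and 0 of 4 had the library order of the class II genes. H2-Ob and H2-DMb2, the other 2 genes, had means below 1 FPKM and were not tested.

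The remaining class II molecules were low. H2-Oa, the alpha chain of H2-DO, which restrains H2-DM, stood at 5.09 and 4.21 FPKM in ACSS2NLS, against 5.45 and 5.14 FPKM in EV, a log2 change of -0.16 ± 0.15 (limma, adjusted p = 0.864). Its partner H2-Ob stood at 0.954 and 1.05 FPKM in ACSS2NLS, against 0.564 and 0.564 FPKM in EV, below the level set for testing. Neither followed the library order of the 7 genes. H2-Eb2 did not exceed 0.018 FPKM in any library.

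Proteases that prepare class II peptides were, like the class II genes, higher in replicate 2 of each group. Ctss, which encodes cathepsin S, the protease that trims the invariant chain, stood at 53.4 and 179.8 FPKM in ACSS2NLS, against 30.8 and 96.6 FPKM in EV. Lgmn, which encodes the endosomal asparaginyl endopeptidase, stood at 5.67 and 39.4 FPKM in ACSS2NLS, against 2.02 and 19.1 FPKM in EV. Replicate 2 was the higher library in both groups for Ctss and for Lgmn. Of the 6 genes of this list in the table, which also holds cathepsin L, the thiol reductase gene Ifi30 and the ubiquitin ligase genes March1 and March8, 4 were tested. All 4 had a higher mean in ACSS2NLS with a median log2 change of 0.65, 0 of 4 passed in either direction, and 3 of 4 had the library order of the class II genes. Gene by gene, the highest library exceeded the lowest 2.31-fold to 19.5-fold. The median was 9.29-fold, against a median of 5.10-fold over the class II genes.

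The DNA-binding factors on which Ciita docks ranged far less. Rfxank, Rfxap and Rfx5 encode the RFX complex. Rfxank stood at 6.57 and 6.51 FPKM in ACSS2NLS, against 6.53 and 6.69 FPKM in EV, and Rfxap at 9.49 and 8.58 FPKM in ACSS2NLS, against 10.5 and 9.08 FPKM in EV. Both varied by little between libraries. Over the 7 genes of this list, which adds Nfya, Nfyb and Nfyc of NF-Y and Creb1, the highest library exceeded the lowest 1.03-fold to 1.54-fold, 4 had a higher and 3 a lower mean in ACSS2NLS, 0 of 7 passed in either direction, and 0 of 7 had the library order of the class II genes.

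Interferon gamma is the classic inducer of Ciita outside professional antigen-presenting cells. The list for that route held 9 genes, among them Prdm1 and Spi1, which are not steps of interferon gamma signalling. Of the 9, 3 had a higher and 6, Prdm1 included (log2 change -0.61), a lower mean in ACSS2NLS. The median log2 change was -0.18, and 0 of 9 passed in either direction. Ifng, which encodes interferon gamma, stood at 247 and 245 FPKM in ACSS2NLS, against 413 and 243 FPKM in EV. The receptor chain gene Ifngr1 stood at 95.7 and 66.2 FPKM in ACSS2NLS, against 148 and 120 FPKM in EV, and its groups did not overlap (log2 change -0.74 ± 0.22; limma, adjusted p = 0.81). Irf1, a transcription factor that acts on the Ciita promoter, stood at 83.0 and 63.9 FPKM in ACSS2NLS, against 118 and 55.4 FPKM in EV. Neither Ifngr1 nor Irf1 had the library order of the class II genes. That order was seen in 2 of the 9, the second receptor chain gene Ifngr2, at 1.39 and 3.91 FPKM in ACSS2NLS and 0.549 and 2.79 FPKM in EV, and Spi1, which encodes the myeloid and B cell factor PU.1, at 4.70 and 12.1 FPKM in ACSS2NLS and 3.10 and 9.06 FPKM in EV.

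Markers of macrophages and monocytes varied with the class II genes from library to library. Their 16 genes summed to 182 and 842 FPKM in ACSS2NLS, against 72.8 and 474 FPKM in EV, and 0 of 16 was at 0 in any library. Of the 15 tested, 14 had a higher mean in ACSS2NLS, 0 passed in either direction, the median log2 change was 0.87, and 13 of 15 had the library order of the class II genes. C1qb, a complement subunit made by macrophages, stood at 24.5 and 129 FPKM in ACSS2NLS, against 4.96 and 57.3 FPKM in EV, and Lyz2, the myeloid lysozyme, at 60.3 and 233 FPKM in ACSS2NLS, against 17.99 and 137 FPKM in EV. Ccr2 and Cd14 did not follow the order. Cd14, a lipopolysaccharide coreceptor, was the 1 tested marker with a lower mean, at 3.09 and 5.04 FPKM in ACSS2NLS, against 5.90 and 29.1 FPKM in EV, and its groups did not overlap (log2 change -1.53 ± 0.68; limma, adjusted p = 0.81). Ccr2, which activated T cells also express, stood at 17.7 and 18.3 FPKM in ACSS2NLS and 18.7 and 16.5 FPKM in EV. The class II genes ranged less than these markers: their sum changed 2.20-fold between the ACSS2NLS replicates and 3.46-fold between the EV replicates, against 4.63-fold and 6.51-fold for the macrophage markers. The class II sum was therefore 2.44 and 1.16 times the macrophage marker sum in ACSS2NLS and 2.87 and 1.52 times in EV. The part of macrophages in the class II levels was not tested.

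Markers of dendritic cells did not differ between the groups in one way. Of the 12 genes of this list, 3 were below 1 FPKM in every library. The conventional dendritic cell receptor Flt3 stood at 0.316 and 0.376 FPKM in ACSS2NLS, against 0.462 and 0.609 FPKM in EV. Clec9a stood at 0.035 and 0.141 FPKM in ACSS2NLS, against 0.015 and 0.083 FPKM in EV. Clec9a, but not Flt3, followed the library order of the class II genes. The integrin gene Itgax, which encodes CD11c, stood at 6.82 and 11.5 FPKM in ACSS2NLS, against 7.01 and 8.31 FPKM in EV. Batf3, a factor that conventional dendritic cells need, stood at 1.13 and 2.02 FPKM in ACSS2NLS, against 0.462 and 1.38 FPKM in EV, in the class II order. Cd209a, a lectin of monocyte-derived and conventional dendritic cells, stood at 2.35 and 1.35 FPKM in ACSS2NLS, against 0.428 and 0.963 FPKM in EV, and its groups did not overlap (log2 change 0.74 ± 0.27; limma, adjusted p = 0.81). Clec10a, another lectin, stood at 1.43 and 2.06 FPKM in ACSS2NLS, against 0.395 and 1.19 FPKM in EV, and its groups did not overlap either (log2 change 0.64 ± 0.28; limma, adjusted p = 0.81). The 12 genes summed to 287 and 268 FPKM in ACSS2NLS, against 298 and 400 FPKM in EV, mostly through Irf8 and Ccr7, which activated or memory T cells also express. Of the 8 tested, 4 had a higher and 4 a lower mean in ACSS2NLS, 0 passed, and Batf3 was the 1 tested gene with the order of the class II genes. Replicate 2 was above replicate 1 in both groups for 6 of these 8. That held for all 7 class II genes and for 34.9% of all genes tested.

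B cell markers were close to 0. Of the 9 in the table, 8 were below 1 FPKM in every library. Pax5, the B cell identity factor, was listed at 0 in ACSS2NLS replicate 1 and both EV libraries and at 0.035 FPKM in ACSS2NLS replicate 2. The list summed to 3.16 and 3.61 FPKM in ACSS2NLS and 1.59 and 2.79 FPKM in EV, of which Cd79b made most. In the same libraries the class II sum was 209 to 978 FPKM.

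Other cells of the tumour varied too. All 7 tested melanoma markers had the library order of the class II genes, and the 9 in the table summed to 13.8 and 180.4 FPKM in ACSS2NLS, against 7.62 and 46.2 FPKM in EV. The melanoma sum differed 13.1-fold between the ACSS2NLS replicates and 6.07-fold between the EV replicates, more than the class II sum did. Melanoma cells are not professional antigen-presenting cells but can carry class II molecules under interferon gamma. The part of tumour cells in the class II levels was not tested. Stromal and endothelial markers, 8 genes, summed to 17.5 and 18.5 FPKM in ACSS2NLS, against 8.61 and 14.4 FPKM in EV, so that both ACSS2NLS libraries were above both EV libraries. Of the 4 tested, all 4 had a higher mean in ACSS2NLS, 0 passed and 2 had the class II order. The part of these cells in the class II levels was not tested. Neutrophil markers differed in another way. They summed to 0.774 and 3.16 FPKM in ACSS2NLS, against 7.46 and 53.5 FPKM in EV, and 0 of the 3 tested had the order of the class II genes. Most of the EV sums came from S100a8, at 3.21 and 24.4 FPKM, and S100a9, at 2.87 and 24.1 FPKM. Of the 3 tested, these 2 had both ACSS2NLS libraries below both EV libraries, as had 18.1% of all genes tested. The third, Csf3r, overlapped, at 0.353 and 1.59 FPKM in ACSS2NLS and 0.492 and 2.69 FPKM in EV. None of the 3 passed.

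CD8 T cell and class I genes did not follow the class II genes. The 7 CD8 T cell markers summed to 2026 and 1590 FPKM in ACSS2NLS, against 2189 and 1813 FPKM in EV, lower in replicate 2 of each group, and 0 of 7 had the class II order. Of the 6 CD4 and regulatory T cell markers, 4 had a higher and 2 a lower mean in ACSS2NLS, and 0 passed. Among them only Foxp3 had the class II order, at 2.85 and 3.89 FPKM in ACSS2NLS and 2.37 and 3.74 FPKM in EV. The 11 class I presentation genes summed to 4774 and 4308 FPKM in ACSS2NLS, against 5042 and 4804 FPKM in EV. Of these, 3 had a higher and 8 a lower mean in ACSS2NLS, 0 passed and 0 had the class II order. Nlrc5, the transactivator that serves class I genes as Ciita serves class II genes, stood at 26.6 and 27.3 FPKM in ACSS2NLS, against 26.7 and 28.2 FPKM in EV. Its highest level exceeded its lowest 1.06-fold, whereas Ciita ranged 3.99-fold. The plot of gene lists by library sets these groups side by side. The difference in range between the lists was not tested.

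**Figure D4:**
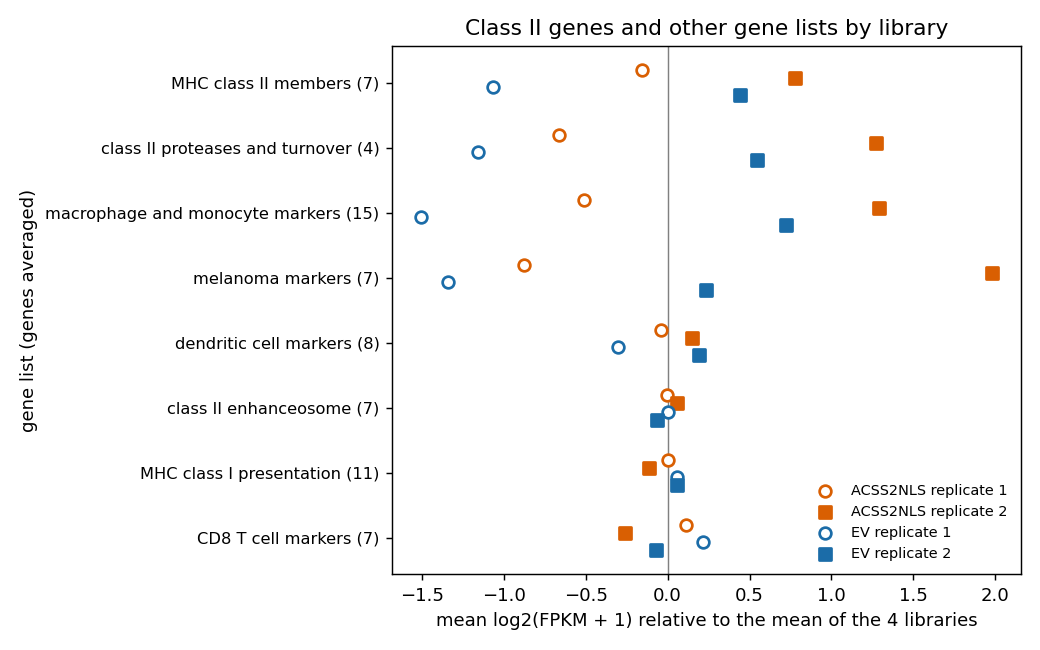
Mean log2(FPKM + 1) of the tested genes of each list in each library, relative to the mean of the 4 libraries (number of genes in brackets; open circles replicate 1, filled squares replicate 2, orange ACSS2NLS, blue EV). The class II genes lie at -0.16 and 0.78 in ACSS2NLS and at -1.06 and 0.44 in EV, and the class I list between -0.12 and 0.057 in all 4 libraries.

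The receptors of class II molecules were also measured. Cd4, the coreceptor for class II, stood at 1.62 and 2.22 FPKM in ACSS2NLS, against 1.12 and 2.40 FPKM in EV. Lag3, the inhibitory receptor that binds class II, stood at 61.8 and 54.2 FPKM in ACSS2NLS, against 75.6 and 57.4 FPKM in EV. Neither passed (limma, adjusted p = 0.95 and 0.862), and for both the groups overlapped. The 5 costimulatory genes of antigen-presenting cells summed to 20.0 and 22.9 FPKM in ACSS2NLS and 19.8 and 22.8 FPKM in EV. Gene by gene, the highest library exceeded the lowest 1.26-fold to 3.30-fold, 2 had a higher and 3 a lower mean in ACSS2NLS, 0 of 5 passed and 1 had the class II order. Among them Cd40, the receptor through which T cells license antigen-presenting cells, had the library order of the class II genes, at 1.40 and 2.28 FPKM in ACSS2NLS and 0.69 and 1.84 FPKM in EV.

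Outside these lists, 5 genes had the profile over the 4 libraries most like the mean profile of the class II genes. Likeness was the root mean square distance between mean-centred log2(FPKM + 1) values. The nearest was Cd81, a tetraspanin of many cell types, at a distance of 0.055, with 6.36 and 11.9 FPKM in ACSS2NLS, against 2.90 and 10.1 FPKM in EV. Tmem51 was at 0.063, Fn1, which encodes fibronectin, at 0.067, and the myeloid lectin receptor gene Clec4a1 at 0.071. Tmem51, Fn1 and Clec4a1 averaged only 2.15, 1.62 and 1.82 FPKM, and on this scale low genes appear to change less than they do. In FPKM their highest library exceeded the lowest 9.38-fold, 17.1-fold and 11.5-fold. The class II genes ranged less, 1.88-fold to 5.68-fold. For comparison, the distance of the 7 class II genes themselves lay between 0.058 for H2-Ab1 and 0.37 for H2-DMa, and the median over all genes compared was 0.70. The last of the 5, Mir5107, at 0.075, lies inside Cd74 on the same strand (chromosome 18, 60812076 to 60812163), so its tags cannot be told apart from those of Cd74.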

How the data were processed

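RNA was extracted with an RNeasy Plus Micro kit, and the 4 libraries were prepared with SMART-Seq v4, per the labels' protocols. STAR 2.5.3a, HOMER and the mm10 build were used, per the submitters' processing notes. HOMER counted tags over exons on the sense strand, reported 1 transcript for each gene and expressed the values as FPKM, per the file headers. The sources used here do not state whether strand was preserved, and Ciita shares 111 exon bases with Dexi on the opposite strand in GENCODE M21. The deposited columns named Acss2OE and Acss2WT were read as ACSS2NLS and EV. The header names 8 tag directories, and the 4 library columns of the table were all used.

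No count test was applied to the FPKM the authors deposited. FPKM multiplied by gene length fell on whole multiples of a step, within 0.1 of a step, for 100% of values up to 50 tags in genes of 500 to 2000 bases, which gave the tags per library. With log2(FPKM + 1), limma-trend (limma 3.58.1, R 4.3.3) compared the groups, two-sided, over the 9810 genes averaging 1 FPKM or more, with Benjamini-Hochberg adjustment at 0.05. Alternatives were other pseudocounts and filters, quantile normalization, a replicate block and each library left out.

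The members, lists and tests were chosen with earlier results of these data known. Named genes were the 7 class II genes, Acss2, up to 5 genes of highest mean level per list with defining markers at 0, and the 5 nearest profiles. Chosen after their values were seen were Acss2os, Cd8a, March1, Rfx5, Nfya, Ifngr2, Prdm1, Spi1, Ccr2, Cd14, Flt3, Clec9a, Clec10a, Batf3, Pax5, Nlrc5, Tap1 and Tap2.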

Additional observations from a re-analysis of the deposited data

How the results depend on the processing

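The 7 class II genes kept a higher mean in ACSS2NLS, with 0 called, at pseudocounts of 0.1 and 0.5, with no filter and under quantile normalization, and so did the 6 that remained at a mean of at least 5 FPKM (log2 changes between 0.23 and 0.95 over these settings). Leaving out 1 library at a time, the change ranged from -0.018 to 1.85 for H2-Aa, -0.18 to 1.47 for H2-Ab1, 0.024 to 1.81 for H2-Eb1, -0.13 to 0.59 for H2-DMa, -0.43 to 1.40 for H2-DMb1, -0.16 to 1.73 for Cd74 and -0.013 to 0.76 for Ciita, with 0 called, and the median of the 7 from -0.13 to 1.47. Such a fit has a lone library in 1 group, which is assumed to vary like the other group.

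Same-numbered replicates deviated together (r = 0.58 across 9810 genes, which are not independent replicates), but the labels do not say that a number marks a shared mouse, batch or day, and there are only 2 pairs. With the replicate block, which leaves 1 residual degree of freedom, 4 of the 7 passed, namely H2-Aa, H2-Ab1, H2-Eb1 and Cd74 (limma, adjusted p = 0.000273, 0.00984, 0.000372 and 0.00272), while 229 genes passed higher and 172 lower over all genes, which is 401 in place of 2. With no filter 1 gene passed higher, and with 1 library left out 2 passed higher in each fit and 0 to 9 lower, the 9 without EV replicate 1. The cause was not tested. The smallest tag number behind a class II value was 117, and what depth limits in the calls was not tested.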
